A study of Mus musculus with 2 samples.

Results

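Mucin genes were examined in RNAseq of cells of the newborn mouse tongue that were sorted into GFP-high and GFP-low by a SOX2 reporter. The 9 genes were chosen by name as mucins of oral mucosa and glands. They comprise 6 membrane mucins (*Muc1*, *Muc4*, *Muc13*, *Muc15*, *Muc16* and *Muc20*) and 3 secreted, gel-forming mucins (*Muc2*, *Muc5ac* and *Muc5b*). Of these, 8 have an entry in the deposited table of 21628 entries and 21591 gene identifiers, and *Muc16* was not analysed here. *Muc2* has 5 entries, so the 8 genes account for 12 entries.

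Both populations came from pooled lingual epithelium of P0 (postnatal day 0) pups that carry a *Sox2-GFP* reporter, in which GFP is read as a measure of *Sox2* expression. Cells were dissociated with enzymes and separated by FACS into a bright (GFP-high) and a dim (GFP-low) population, and about 100000 cells of each gave 1 library. No treatment was given, and the brightness of GFP is the difference between the groups. With 1 library per population there is no replicate check and no test, and no p-values are given. Values are FPKM, which divide the fragments of a gene by its transcript length and by the mapped fragments of the library, so levels of genes of different length can be set side by side.

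Mucins are proteins with long stretches of serine, threonine and proline, to which many O-linked sugar chains are attached. Membrane mucins stand on the apical surface of epithelia as a glycocalyx, lubricate it and keep pathogens off, and some of them bind receptors of the EGF family. Gel-forming mucins are released by goblet cells and by mucous cells of glands, and they polymerize into mucus. In the mouth, mucus comes largely from salivary glands, while the stratified epithelium itself carries membrane mucins.

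The property that the members share is visible in their coding sequence. Below are the 40 codons richest in serine, threonine and proline within 1 exon, for *Muc15*, the mucin with the highest FPKM, for *Muc4*, with the largest ratio of the membrane mucins, and for *Muc2*, whose window was the richest of the 9 genes. Sequences are of the coding strand of mm10, read from GENCODE M21 transcripts, and capitals mark codons for serine, threonine or proline.
Muc15 (exon 3 of 5, chr2:110731425-110731544, plus strand): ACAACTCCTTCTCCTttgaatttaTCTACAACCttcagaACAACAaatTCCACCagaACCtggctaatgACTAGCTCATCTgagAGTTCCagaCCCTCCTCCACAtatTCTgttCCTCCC
Muc4 (exon 2 of 27, chr16:32750325-32750444, plus strand): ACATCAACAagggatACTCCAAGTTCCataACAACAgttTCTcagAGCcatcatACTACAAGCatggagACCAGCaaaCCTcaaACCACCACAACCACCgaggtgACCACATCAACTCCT
Muc2 (exon 2 of 19 of its longest annotated fragment, chr7:141745529-141745648, plus strand): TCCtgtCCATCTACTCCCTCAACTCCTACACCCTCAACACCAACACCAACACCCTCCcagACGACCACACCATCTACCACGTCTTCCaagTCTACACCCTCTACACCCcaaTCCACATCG

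In these windows, 26 of 40 codons of *Muc15*, 27 of *Muc4* and 36 of *Muc2* were of this kind. The windows were chosen for this count, and the richest windows of genes other than the members were not searched. Over the whole coding sequence, the share was 44.1% in *Muc1*, 44.8% in *Muc4* and 43.5% in *Muc20*. It was 34.1% in *Muc15*, 38.1% in *Muc13* and 28.0% in the longest annotated fragment of *Muc2*. The median of this whole-sequence share over 21798 protein-coding genes was 18.7%. Only 0.0505% of genes had a share as high as that of *Muc4*, whereas 0.927% reached that of *Muc15* and 5.04% that of the *Muc2* fragment.

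**Figure D1:**
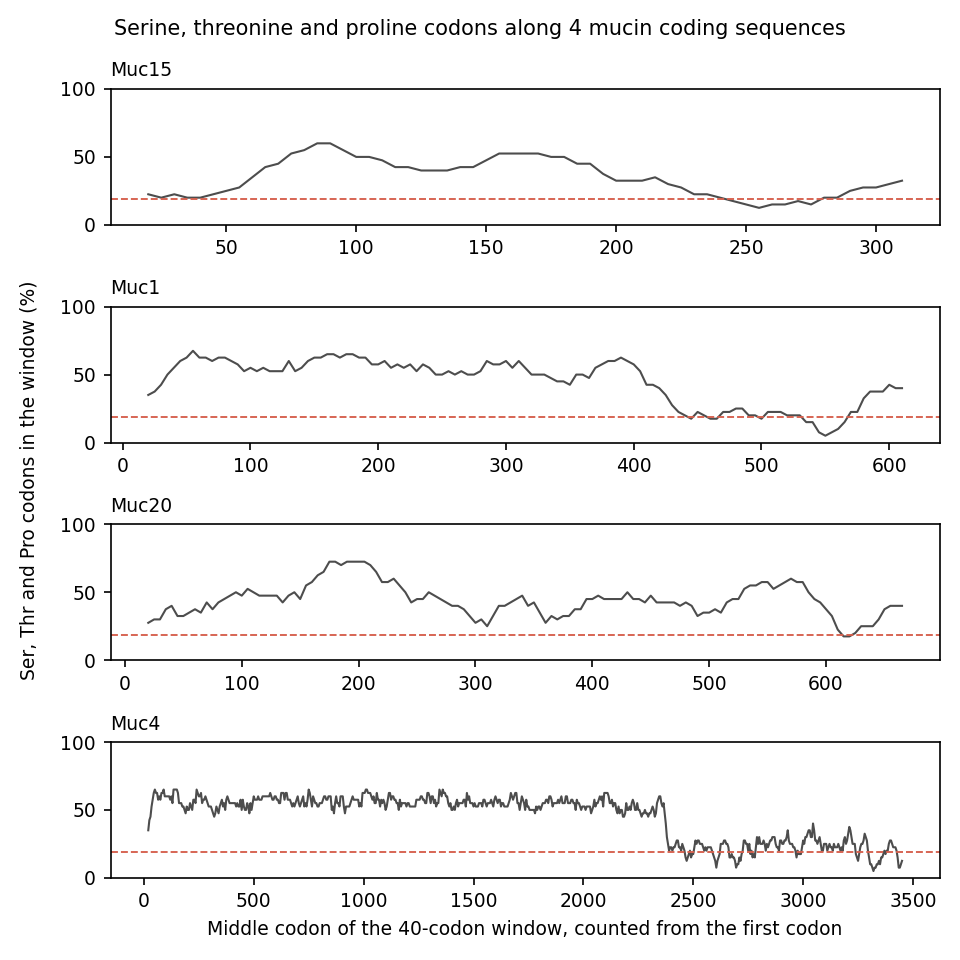
Share of serine, threonine and proline codons (%) in a sliding window of 40 codons along the coding sequences of *Muc15*, *Muc1*, *Muc20* and *Muc4*, against the position of the window in codons. The dashed line is the median share over whole coding sequences of protein-coding genes, 18.7%. The rich stretch comes first and a poorer stretch follows in *Muc1* and *Muc4*, while *Muc20* lies above the line over most of its length.

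*Muc15* had the highest level of the 8 genes in both populations and *Muc1* the next, and these were the only members to reach 5 FPKM in either library. *Muc15* was higher in bright cells and *Muc1* in dim cells, each by 1.44-fold. *Muc4* was 3.15-fold higher in bright cells, at a lower level. *Muc20* and *Muc13* were under 1 FPKM in both libraries. All 5 entries of *Muc2* were under 1 FPKM and higher in dim cells, and *Muc5ac* and *Muc5b* are listed at 0 in both. In such bulk libraries, fewer cells that express a gene and less RNA per cell cannot be told apart.

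Enriched means here at least 5 FPKM in the higher population and at least 1.5-fold over the other. The methods of the study word the FPKM limit for each sample, which was taken as a second rule with at least 5 FPKM in both populations. No member was enriched by either rule. Of all 21590 protein-coding or untyped entries with numbers, 9.16% were enriched in either direction, 4.72% in bright cells and 4.44% in dim cells. With 5 FPKM in both populations, 6.53% were enriched in either direction, 3.6% in bright and 2.93% in dim cells. Of the 20 genes enriched in the lists described below, 16 passed the second rule as well, and *B4galt4*, *Fcgbp*, *Prox1* and *Pecam1* did not. Among the 1377 entries at 5 to under 10 FPKM in the higher library, the range of *Muc15* and *Muc1*, the first rule was passed by 14.5% toward bright and by 18.2% toward dim cells. The median difference in log2(FPKM + 1) between bright and dim cells was −0.04 over the 6 members above 0 and −0.02 over 17283 genes above 0. Of these 6, 2 were higher in bright and 4 in dim cells. The median joins differences of opposite sign, so the genes are described in turn.

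**Figure D2:**
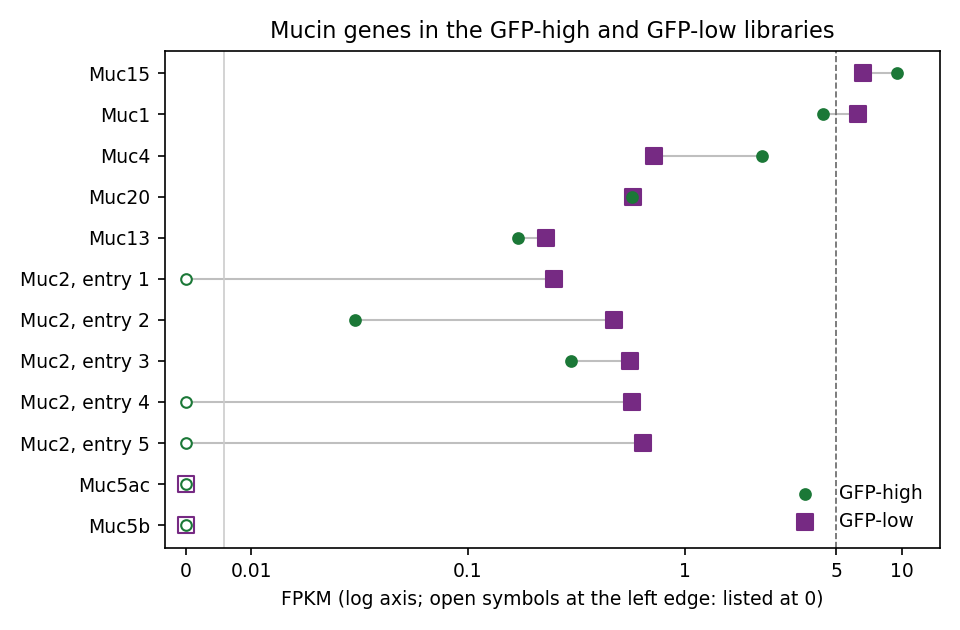
FPKM of each mucin entry (log axis) in the bright (GFP-high) library as circles and the dim (GFP-low) library as squares, 1 value per library. Open symbols at the left edge are values listed at 0, and the dashed line is at 5 FPKM. *Muc15* and *Muc1* lie near the line, the bright value of *Muc15* to the right and that of *Muc1* to the left of the dim value, and all 5 entries of *Muc2* have the bright value to the left of the dim value.

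*Muc15* (ENSMUSG00000050808, chromosome 2, 110721340–110739527, plus strand) encodes a small membrane mucin that was first found in milk fat globule membranes. Its FPKM was 9.57 in bright cells and 6.63 in dim cells. The ratio was 1.443, and rounding of the deposited values allows 1.442 to 1.445. It was thus just under the 1.5-fold limit. *Muc15* stood above 58.0% of all entries in bright cells and above 54.0% in dim cells, counting entries at 0. Over the 17283 genes above 0 in either library, the median was 11.3 FPKM in bright and 11.7 FPKM in dim cells. *Muc15* was below this median in each library. The values correspond to about 900 and 805 reads, taking its longest transcript of 3421 nt. Here and below, reads per gene rest on approximate depths estimated from the FPKM, which are below those of the sample labels. None of the 50-nt windows of that transcript occurs in it again, and 0.445% occur in a transcript of another gene, *Ano3*, on the opposite strand.

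*Muc1* (ENSMUSG00000042784, chromosome 3, 89229057–89233381, plus strand) encodes the best known membrane mucin, whose cytoplasmic tail can be phosphorylated and can bind beta-catenin. Its FPKM was 4.34 in bright cells and 6.27 in dim cells, 1.44-fold higher in the latter. Rounding allows 1.442 to 1.448. These values correspond to about 268 and 499 reads. On the TPM scale, where the FPKM of each library are brought to the same sum, *Muc1* passed the limit, at −1.55 (the minus sign denotes a higher value in dim cells). On that scale, 5.65% of all entries were enriched in dim cells and 3.74% in bright cells. The ratio of *Muc15* was 1.35 on it. With the dim library multiplied by 0.973, the median ratio over well expressed genes, the ratio of *Muc15* was 1.48. *Muc15* FPKM were 2.21 times those of *Muc1* in bright cells and 1.06 times in dim cells, a comparison within each library that scaling does not touch.

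*Muc4* (ENSMUSG00000079620, chromosome 16, 32735886–32782391, plus strand) encodes a very large membrane mucin that forms a complex with the receptor ERBB2. Its FPKM was 2.27 in bright cells and 0.72 in dim cells, a ratio of 3.15 with 3.12 to 3.18 allowed by rounding. Although these FPKM are low, the longest transcript has 11277 nt, and they correspond to about 704 and 288 reads. The ratio was between 1.90 and 3.24 on every scale and with every pseudocount tried. With a minimum of 1 FPKM in place of 5, *Muc4* was the only member past 1.5-fold. Of all entries, 7.13% passed this rule toward bright cells and 7.24% toward dim cells. Among the 2175 entries at 1 to under 5 FPKM in the higher library, 1.5-fold was passed by 23.9% toward bright and by 27.8% toward dim cells. Without any minimum, *Muc4* and *Muc2*, the latter taken at the mean of its entries, passed 1.5-fold, as did 29.5% of all entries.

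The *Muc4* coding sequence is repetitive. A stretch of 120 bases that starts at codon 670 recurs 372 bases further on with 118 matching bases, and 10.1% of the 50-nt windows of its longest transcript occur there more than once. Reads from such windows have several places within the gene, and how they were counted is not given in the sources used here. The 3′ end of *Muc4* also overlaps *Muc20*, which lies on the minus strand, over 4973 bp (chromosome 16, 32777419–32782391). The genes share 627 nt of exons, 5.33% of *Muc4* and 15.6% of *Muc20* exon sequence. The libraries were stranded, but whether strand was used in counting is not given in the sources used here.

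*Muc20* (ENSMUSG00000035638, chromosome 16, 32777419–32797435, minus strand) encodes a membrane mucin that binds the receptor MET. Its FPKM was 0.57 in bright cells and 0.58 in dim cells, about 58 and 76 reads. Rounding alone allows a fold between 1.00 and 1.04 in size. The values were thus nearly equal, while those of the overlapping *Muc4* were 3.15-fold apart.

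*Muc13* (ENSMUSG00000022824, chromosome 16, 33794037–33819934, plus strand), a membrane mucin best known from the intestine, had an FPKM of 0.17 in bright cells and 0.23 in dim cells. That is about 14 and 24 reads, the fewest of the members above 0 for which reads could be estimated. The fold was 1.35 toward dim cells, and rounding allows 1.29 to 1.42. Its coding sequence is also repetitive, with 120 bases from codon 117 that recur unchanged 81 bases further on. Of the 50-nt windows of its longest transcript, 14.2% occur there more than once and 3.53% occur in a transcript of *Gm15657* on the opposite strand.

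The secreted mucins lie side by side on chromosome 7, *Muc2* at 141690340–141754693, *Muc5ac* at 141788972–141819231 and *Muc5b* at 141839070–141873084, all on the plus strand. *Muc2* (ENSMUSG00000025515) is the main mucin of intestinal goblet cells. Its entries had 0.25, 0.47, 0.56, 0.57 and 0.64 FPKM in dim cells. In the same order, they had 0, 0.03, 0.30, 0 and 0 FPKM in bright cells. The dim value was the higher in 5 of 5 entries, 3 of which are listed at 0 in bright cells, and no fold is given for these 3.

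For the other 2 entries of *Muc2*, the fold toward dim cells was 1.87 (0.30 and 0.56 FPKM) and 15.7 (0.03 and 0.47 FPKM). Rounding alone allows 13.3 to 19 for the latter. The annotation holds *Muc2* as 8 transcripts in 5 blocks that do not overlap each other, the same number as the entries. Which entry belongs to which block is not given, so the entries were neither summed nor turned into reads. Entries of 1 gene are not replicates.

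*Muc5ac* (ENSMUSG00000037974), the mucin of gastric surface cells and airway goblet cells, is listed at 0 in both libraries. *Muc5b* (ENSMUSG00000066108), the main gel-forming mucin of human saliva, is also listed at 0 in both. For transcripts of 10752 and 14964 nt, the last printed digit, 0.01 FPKM, is worth about 2.96 and 4.12 reads in bright cells and about 3.82 and 5.31 reads in dim cells. A printed 0 stands for less than 0.005 FPKM, so only fewer reads than these could be present under it.

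**Figure D3:**
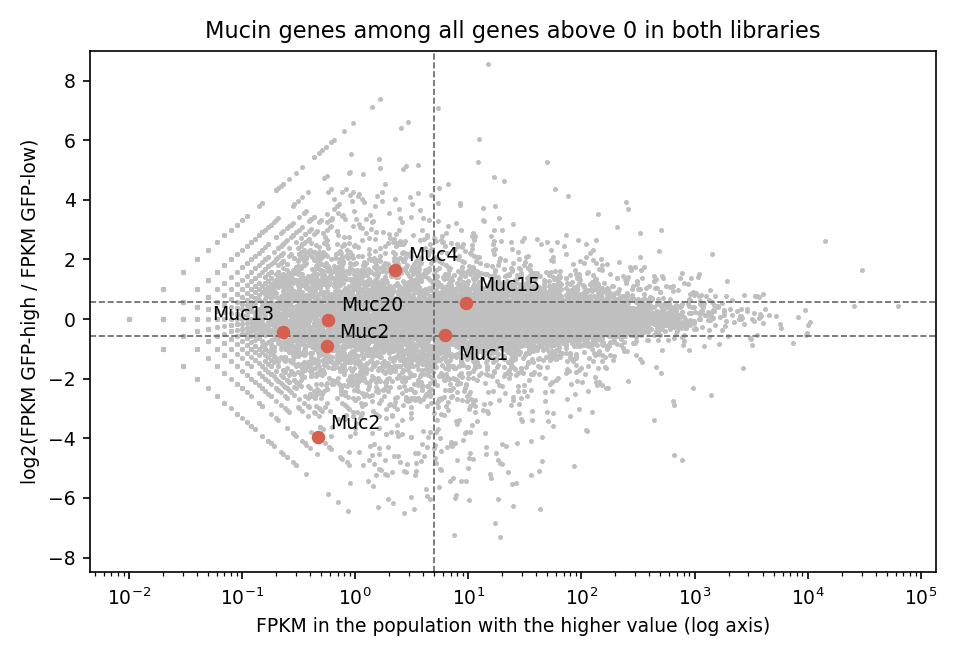
Log2 ratio of bright (GFP-high) to dim (GFP-low) FPKM against the FPKM in the population with the higher value (log axis), for all genes above 0 in both libraries (grey) and the mucin entries (red). Dashed lines mark 1.5-fold in each direction and 5 FPKM. *Muc15* and *Muc1* lie just inside the 1.5-fold lines, *Muc4* above the upper line but left of 5 FPKM, and both plotted entries of *Muc2* below the lower line.

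Summed over the 8 genes, with *Muc2* at the mean of its entries, mucin FPKM was 17.0 in bright and 14.9 in dim cells. *Muc15* made up 56.3% of the sum in bright and 44.4% in dim cells, *Muc1* 25.6% and 42.0%, and *Muc4* 13.4% and 4.82%. The genes nearest to *Muc1* in their pair of log2(FPKM) values over the 2 libraries were *Ccdc116*, *Gpr155* and *Pxylp1*, at distances of 0.03 to 0.04. Those nearest to *Muc15* were *Lca5*, *Oser1* and *Lag3*, at 0.05 each. With 2 libraries, such a match says only that level and ratio were alike.

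Cell type markers differed between the libraries. Of 4 suprabasal keratinocyte genes, 3 were enriched in bright cells, *Krt4* (14203 and 2323 FPKM in bright and dim cells), *Krt13* (30523 and 9738 FPKM) and *Krt1* (335 and 108 FPKM). All 4 basal keratinocyte genes were higher in dim cells and none was enriched, with summed FPKM of 23710 and 30189. *Krt5* (9667 and 10422 FPKM) and *Krt15* (7093 and 9773 FPKM) were the highest of these in either library, and *Krt14* (6672 and 9635 FPKM, 1.44-fold) passed the limit on the TPM scale, at 1.55-fold. Of 5 fibroblast genes, *Col1a1*, *Col1a2*, *Col3a1* and *Dcn* were enriched in dim cells, by 3.52-fold to 5.02-fold. The summed FPKM of the 5 was 405 in bright and 1810 in dim cells. Of 4 taste cell genes, *Krt8* (27.9 and 12.2 FPKM) and *Prox1* (5.40 and 0.36 FPKM) were enriched in bright cells. Of 3 leukocyte genes none was enriched, with summed FPKM of 1.69 in bright and 0.97 in dim cells. *Tyrobp* (1.33 and 0.95 FPKM) and *Cd52* (0.30 and 0 FPKM) were the highest of these. The part of these differences in the mucin values was not tested.

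Most genes of the gland list were low. Of 18 salivary and lingual gland genes, 12 were under 1 FPKM in both libraries, and the other 6 were *Slc12a2*, *Amy1* (2.75 and 3.21 FPKM in bright and dim cells), *Smgc*, which shares its locus with *Muc19* (0.59 and 1.27 FPKM), *Lyz2* (0.84 and 1.57 FPKM), *Ltf* (1.17 and 0.69 FPKM) and *Kcnn4* (1.46 and 0.61 FPKM). *Bpifa2*, *Pip*, *Dcpp1*, *Dcpp2* and *Dcpp3*, which encode secreted proteins of salivary and lingual glands, are listed at 0 in both. *Aqp5*, the water channel of acinar cells, had 0.14 FPKM in bright and 0.16 in dim cells. The only enriched gene of the list was the ion transporter *Slc12a2* (36.4 and 55.1 FPKM), 1.51-fold toward dim cells. It fell below the limit, at none of the list enriched, when the dim library was multiplied by 0.973, the median ratio over well expressed genes. The summed FPKM of the gland list was 44.5 in bright and 64.5 in dim cells, of which *Slc12a2* alone gave 36.4 and 55.1. The sums thus mostly reflect this 1 gene.

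Of 16 goblet and mucous cell genes, 11 were under 1 FPKM in both libraries and *Tff2*, *Foxa3*, *Ern2* and *Bpifa1* are listed at 0 in both. *Creb3l1*, a transcription factor of secretory cells, had the highest level of the list, 10.8 FPKM in bright and 9.42 in dim cells. *Fcgbp*, which encodes a mucus protein that binds IgG, was the only gene enriched, at 2.96 and 5.69 FPKM, 1.92-fold toward dim cells. *Agr2*, an isomerase needed to fold gel-forming mucins, had 2.21 and 1.57 FPKM, *Agr3* 2.19 and 0.34 FPKM and *Creb3l4* 3.17 and 2.53 FPKM. The median log2(FPKM + 1) difference over the genes of the list above 0 was 0.22, against −0.02 over all genes. Most of those list genes were under 1 FPKM in both libraries. The summed FPKM of the list was 23.1 in bright and 20.5 in dim cells.

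O-glycans are started in the Golgi by GalNAc transferases, which attach the sugar GalNAc to serine or threonine. Of 19 such genes listed, 17 were in the table and 8 were at 5 FPKM or more in either library. *Galnt1* had the highest level, 103 FPKM in bright and 97.7 in dim cells, followed by *Galnt18* with 58.1 and 52.1 FPKM. None was enriched in bright cells, and *Galnt7*, which adds GalNAc next to sites already glycosylated, was enriched in dim cells (15.8 and 24.4 FPKM, 1.54-fold). The 7 genes under 1 FPKM in both libraries include *Galnt5*, *Galnt13* and *Galnt14*.

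Enzymes that extend and cap the chains showed ratios in both directions. Of 21 genes, 11 were at 5 FPKM or more in either library, 2 were enriched in bright cells and 2 in dim cells. *St3gal1*, which adds sialic acid to the core 1 chain, had 11.4 FPKM in bright and 5.42 in dim cells, a ratio of 2.10. *St3gal4*, which caps other galactose ends with sialic acid, had 6.31 and 13.4 FPKM, 2.12-fold toward dim cells. The galactosyltransferases *B4galt1* (43.0 and 27.9 FPKM, ratio 1.54) and *B4galt4* (3.39 and 6.12 FPKM, 1.81-fold toward dim cells) also differed in opposite directions. On the TPM scale, *B4galt1* fell below the limit, at 1.44.

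The core 1 synthase *C1galt1* (17.8 and 12.4 FPKM) and the fucosyltransferase *Fut1* (14.3 and 9.82 FPKM) were just under the limit, with ratios of 1.44 and 1.46. *C1galt1c1*, the chaperone that the synthase needs, had 22.5 and 20.7 FPKM. *B3gnt2*, which adds GlcNAc to galactose, had 36.0 and 32.4 FPKM, and the fucosyltransferase *Fut2* 10.02 and 8.72 FPKM. Of the 21 genes, 7 were under 1 FPKM in both libraries, among them *Gcnt3* at 0.05 and 0.02 FPKM, *B3gnt6* at 0.20 and 0.14 FPKM and *St6galnac1* at 0.13 and 0.15 FPKM in bright and dim cells. The median log2(FPKM + 1) difference was 0.12 for the extending and capping enzymes and 0.04 for the GalNAc transferases, against −0.02 over all genes.

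**Figure D4:**
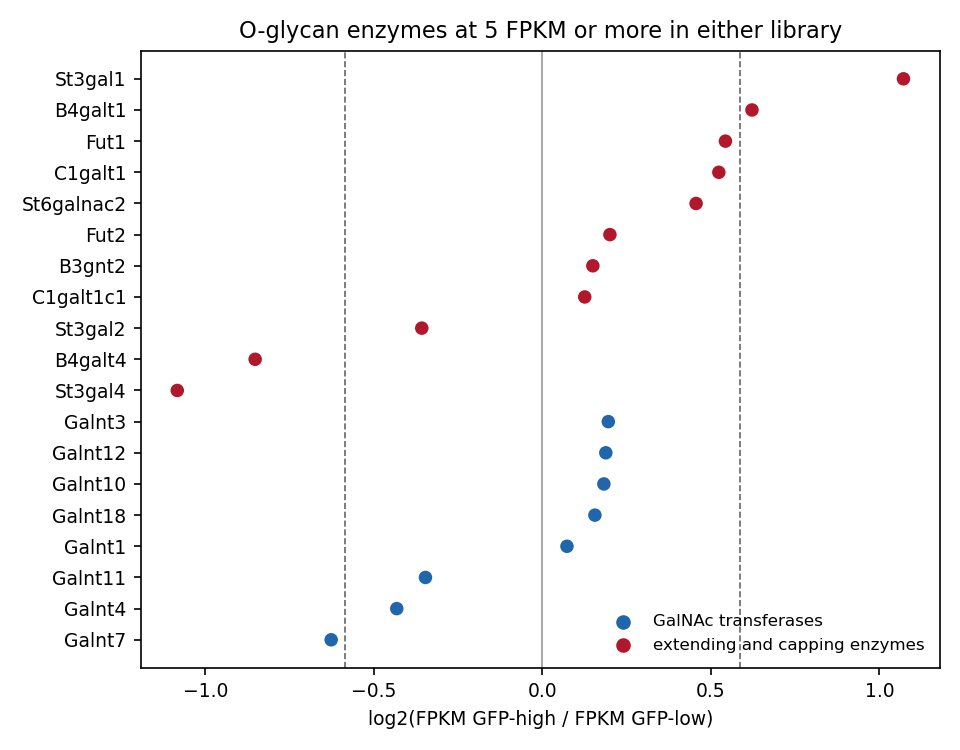
Log2 ratio of bright (GFP-high) to dim (GFP-low) FPKM for the 19 O-glycan enzyme genes at 5 FPKM or more in either library, 1 value per gene. Dashed lines mark 1.5-fold in each direction. *St3gal1* and *B4galt1* lie right of the upper line, and *St3gal4*, *B4galt4* and *Galnt7* left of the lower one.

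Partners of membrane mucins were expressed at far higher levels than the mucins. Of 13 genes, 12 were at 5 FPKM or more in both libraries and none was enriched. On the TPM scale 1 was, the adhesion molecule gene *Icam1* (74.0 and 108 FPKM, 1.46-fold toward dim cells), at 1.57-fold. *Ctnnb1*, which encodes beta-catenin, had 1329 FPKM in bright and 1202 in dim cells. *Lgals3*, which encodes galectin-3, a lectin that binds mucin sugars, had 1224 and 847 FPKM, a ratio of 1.45. *Erbb2*, the partner of *Muc4*, had 162 and 121 FPKM, and *Met*, the partner of *Muc20*, 24.4 and 24.8 FPKM. The sheddase genes *Adam10* (72.6 and 76.0 FPKM) and *Adam17* (48.7 and 44.7 FPKM) differed by 1.05-fold and 1.09-fold. The exception was *Msln*, which encodes mesothelin, a ligand of MUC16, at 0.21 and 0.07 FPKM.

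A further list held other genes of the mucin family, sialomucins and some genes outside both groups, such as the adhesion molecule gene *Mcam*. Of its 22 genes, 15 were in the table. *Muc3* (0.12 and 0.26 FPKM in bright and dim cells), *Muc6* (0 and 0.01 FPKM), *Mucl1* and *Prol1* (0 in both) were low like the members on chromosome 7. The sialomucin *Cd164* was far above every member, at 272 and 259 FPKM. *Parm1* was enriched in bright cells (27.5 and 15.1 FPKM, ratio 1.82), and *Mcam* (51.9 and 96.6 FPKM, 1.86-fold) and *Cd34* (8.58 and 13.8 FPKM, 1.61-fold) in dim cells. *Cd34* and *Mcam* are also expressed by vascular and mesenchymal cells. Of the 3 endothelial genes *Pecam1*, *Cdh5* and *Emcn*, *Pecam1* was enriched in bright cells (5.31 and 2.38 FPKM). On the TPM scale *Pecam1* had 4.96 and 2.38, still 2.08-fold, and missed only the minimum of 5. The summed FPKM of the 3 genes was 12.0 in bright and 5.60 in dim cells. The part of endothelial cells and fibroblasts in the values of *Cd34* and *Mcam* was not tested.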

How the data were processed

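Single-end reads of 50 nt were obtained from 1 stranded library per population, and the sample labels give about 75 M reads each. The authors trimmed reads with Trimmomatic 0.36, mapped them to mm10 with GSNAP and obtained FPKM with Cufflinks 2.2.1. They deposited FPKM rounded to 2 decimals. The columns are named means, but there is 1 library per population. A deposited signed fold column, a score of the authors' own comparison, was not used.

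Fold is the ratio of FPKM, with no pseudocount. Lists were compared by log2(FPKM + 1). Enriched means at least 5 FPKM in the higher population and at least 1.5-fold, after the results text of the study. Its methods word the minimum for each sample, which was run as an alternative. Rounding ranges add and subtract 0.005 FPKM and cover rounding only. Positions, gene types and transcripts are from GENCODE M21 (GRCm38, the same build as mm10). The 17 entries without a number in a population were left out of counts. Calculations used Python 3.11.15 and pandas 2.3.3.

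Depth was estimated from low FPKM of genes with 1 transcript of 400 to 2500 nt, less 200 nt. Only values of at most 6 reads were used, and only where 0.005 FPKM was worth at most 0.15 read. A greater assumed depth leaves only shorter transcripts, so depths near that of the sample labels were hardly open to this search. The best match to whole reads was at 27.5 M reads in GFP-high and 35.5 M in GFP-low cells, where 62.6% of 203 and 62.8% of 148 values lay within 0.15 of a whole read. These depths are approximate. Too few values were near whole reads to rebuild counts, and no count model was fitted. Whole reads per gene use these depths and the full length of the longest transcript. Because the 200 nt were not taken off, they run somewhat high for a given depth. The estimated depths are below the about 75 M reads of the sample labels, and the reason was not tested. Given the limit of the search, this gap cannot be read as a result. At a greater depth, all reads given per gene would be higher.

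Repeated 50-nt windows were searched in annotated transcripts only. The members and lists were chosen with earlier results of these data known. Named are the members, the enriched genes and those of highest FPKM in each list, and the 3 genes nearest to each member at 5 FPKM. Other genes named were chosen after their values were seen. Alternatives were other FPKM minimums, a 2-fold limit, pseudocounts, TPM and scaling by the median ratio.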

Additional observations from a re-analysis of the deposited data

How the results depend on the processing

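The count of 0 enriched mucin genes remained 0 with scaling by the median ratio. A minimum of 5 FPKM in both populations or of 10 FPKM and a 2-fold limit are stricter than the main rule. They could only give 0 again, so they do not show how stable the count is. The count was 1 with a minimum of 1 FPKM (*Muc4*), 1 on the TPM scale (*Muc1*, at −1.55) and 2 without a minimum (*Muc4*, and *Muc2* at the mean of its entries). The TPM scale lowers every log2 ratio by 0.10, and the cause of the difference between the scales was not tested. *Muc20* changed direction, to 1.01, with the libraries scaled by their median ratio. The median log2 difference over the members, −0.04, was −0.16 with a pseudocount of 0.1 and 0.47 over the 3 members that average 1 FPKM or more. Leaving out *Muc2* and keeping members at 0, both chosen after the data were seen, gave −0.01 and −0.005. The fold of *Muc4* fell to 1.90 with 1 added to each FPKM. Over all fixed lists, 20 genes were enriched, 32 with a minimum of 1 FPKM, 57 without a minimum and 12 at 2-fold. Of all entries, 9.16% were enriched, 14.4% with a minimum of 1 FPKM and 29.5% without a minimum. Neither the share of all entries at 2-fold nor the shares within the lists were computed. The list counts thus cannot be set directly beside these percentages. These lists include the cell type markers, of which fibroblast genes gave 4 of the 20 and suprabasal keratinocyte genes 3. For single lists, 56 of 84 alternative counts were within 1.5 times the main one and 28 were not. No paired analysis was possible because each population has 1 library, and for the same reason no library could be left out. *Muc13* rests on about 14 and 24 reads, and rounding to 2 decimals can hide values under 0.005 FPKM of *Muc5ac* and *Muc5b*.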

Other observations

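Several genes of the mucin, O-glycan, goblet, gland and partner lists differed by more than 1.5-fold below the 5 FPKM minimum, and they were chosen after their values were seen. Of 15 list genes at 1 to under 5 FPKM in the higher library, 6 were at least 1.5-fold higher in bright cells and 5 in dim cells. Among all 2175 entries in that range, 23.9% were so in bright and 27.8% in dim cells. *Agr3*, a relative of *Agr2* known from ciliated airway cells, had 2.19 FPKM in bright and 0.34 in dim cells, a ratio of 6.44. The sialomucin *Podxl* had 3.44 and 1.14 FPKM, the potassium channel *Kcnn4* 1.46 and 0.61 FPKM, and the fucosyltransferase *Fut4* 1.01 and 0.44 FPKM.

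In the other direction, the GalNAc transferases *Galnt6* (1.42 and 4.84 FPKM in bright and dim cells) and *Galnt16* (1.44 and 4.24 FPKM) were 3.41-fold and 2.94-fold higher in dim cells. The sialyltransferase *St6galnac4* had 0.52 and 1.76 FPKM, 3.38-fold higher in dim cells. *Smgc* and *Lyz2* of the gland list were 2.15-fold and 1.87-fold higher in dim cells. *Podxl* is also expressed by endothelial cells, and the summed FPKM of 3 endothelial genes was 12.0 in bright and 5.60 in dim cells, a part that was not tested.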
